A study of Mus musculus with 4 samples.

Results

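The NRF2 and glutathione antioxidant genes examined here are Nfe2l2, Keap1, Nqo1, Hmox1, Gclc, Gclm, Txnrd1, Srxn1, Slc7a11 and Gpx2. They were found by gene symbol, and all 10 were present among the 24391 genes of the count files. All 10 passed the filter on low counts, as did 16001 genes in all. They were measured by RNA sequencing in 4 mouse lung tumour samples, 2 labelled K-Ras and 2 labelled K-Ras Mll4-/-. The K-Ras tumours came from mice with the K-Ras LSL-G12D allele, which makes oncogenic K-Ras once Cre recombinase removes a stop cassette. The K-Ras Mll4-/- tumours carried the same allele together with floxed Mll4 (Mll4fl/fl), so oncogenic K-Ras is shared by both groups. Mll4 is now named Kmt2d and encodes an enzyme that methylates histone H3 on lysine 4, chiefly at enhancers. In both groups a single-cell suspension was made from the tumours, cleared of red blood cells and depleted of leukocytes bearing CD45 before RNA extraction. Strain, sex, age, the time of tumour growth and the source of Cre are not given in the sources used here. Nothing in them says that the samples of a group came from separate mice, so the p-values measure only the spread between these samples, which may be technical.

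NRF2, the protein of Nfe2l2, is a transcription factor that switches on antioxidant and detoxifying genes. KEAP1 holds it in check by presenting it to a ubiquitin ligase, and oxidants or electrophiles that modify KEAP1 let NRF2 escape degradation, enter the nucleus and bind antioxidant response elements with small MAF partners. Because this control acts on the protein, the level of Nfe2l2 mRNA is not a readout of NRF2 activity. Its targets supply glutathione (Slc7a11, Gclc, Gclm), use it to remove peroxides (Gpx2), keep thioredoxin and peroxiredoxins reduced (Txnrd1, Srxn1), reduce quinones (Nqo1) and break down heme (Hmox1).

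To show which of these genes carry letters of the antioxidant response element near their start, the 250 bases before each annotated start were read from RefSeq (GRCm38.p6). There were 10 such windows for 8 of the genes. Gclc and Hmox1 had none and were not searched. The core of the element, TGACNNNGC, was searched on both strands, and 3 of the 10 windows held it, in Nfe2l2, Gclm and Txnrd1, against 10.2% of all 32851 windows of that length. The AP-1 element TGACTCA, which has part of its letters in common with the response element, was also searched on both strands and was found in Srxn1 alone, against 4.46% of all windows. No match of one motif overlapped a match of the other in these windows. Variants of the core were not searched. The Srxn1 match nearer the start reads TGAGTCAgc with the letters after it, which departs from TGACNNNGC only in having G for C after TGA. A match is a description of the letters and not a bound site, and a window without a match says nothing of elements farther away. The full windows of 4 genes are printed 5' to 3' because the first 3 had the largest fitted differences between the groups and Gclm one of the smallest. For Srxn1 and Txnrd1 only the stretch around the match is printed. Matches are in capitals.
Gpx2 (chr12:76795555-76795804, minus strand): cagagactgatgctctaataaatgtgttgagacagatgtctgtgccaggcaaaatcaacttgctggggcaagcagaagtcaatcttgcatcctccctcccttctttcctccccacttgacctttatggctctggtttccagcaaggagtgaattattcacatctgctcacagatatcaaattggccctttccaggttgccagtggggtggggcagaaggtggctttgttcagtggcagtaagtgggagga
Slc7a11 (chr3:50443614-50443863, minus strand): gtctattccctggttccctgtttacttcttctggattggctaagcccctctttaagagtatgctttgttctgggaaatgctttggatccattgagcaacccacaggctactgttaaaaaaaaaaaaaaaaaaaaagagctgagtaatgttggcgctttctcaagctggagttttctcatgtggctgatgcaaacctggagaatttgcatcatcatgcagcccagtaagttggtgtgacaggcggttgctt
Nfe2l2 (chr2:75704664-75704913, minus strand): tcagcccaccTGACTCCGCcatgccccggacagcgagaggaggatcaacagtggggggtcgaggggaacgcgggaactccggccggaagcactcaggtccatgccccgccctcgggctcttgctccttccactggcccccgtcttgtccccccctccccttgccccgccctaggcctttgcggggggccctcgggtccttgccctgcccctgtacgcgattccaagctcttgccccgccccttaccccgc
Gclm (chr3:122245307-122245556, plus strand): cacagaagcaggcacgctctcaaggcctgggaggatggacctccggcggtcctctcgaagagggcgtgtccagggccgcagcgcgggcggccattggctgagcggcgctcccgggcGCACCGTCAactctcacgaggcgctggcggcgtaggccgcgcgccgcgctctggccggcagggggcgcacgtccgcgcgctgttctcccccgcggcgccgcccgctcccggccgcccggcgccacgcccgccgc
Srxn1 (chr2:152105407-152105500, plus strand): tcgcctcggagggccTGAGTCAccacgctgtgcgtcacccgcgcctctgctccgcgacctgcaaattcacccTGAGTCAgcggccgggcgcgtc
Txnrd1 (chr10:82859099-82859137, plus strand): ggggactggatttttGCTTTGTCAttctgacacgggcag
The match began 240 bases before the start in Nfe2l2, 134 in Gclm and 92 in Txnrd1, and those of Srxn1 began 102 and 45 bases before it. The Gpx2 and Slc7a11 windows held neither motif.

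The libraries held 26683033 to 36677987 gene-assigned reads, with overlapping ranges in the groups. The targeted gene Kmt2d was at 395 and 526 CPM (counts scaled to a common library size with TMM, a normalisation that sets most genes level between samples) in the K-Ras samples and at 367 and 317 CPM in the K-Ras Mll4-/- samples. That difference was not called (log2 fold change -0.43, edgeR quasi-likelihood adjusted p = 0.302), and gene totals do not resolve a deleted exon, so the loss of Mll4 is taken from the labels. Alveolar type 2 markers were abundant in every sample, their 6 genes summing to between 17074 and 28567 CPM. Endothelial markers were lower in both K-Ras Mll4-/- samples, summing to 2977 and 2328 CPM against 4081 and 4359 CPM in K-Ras. Of the 6 endothelial genes, 5 were below in both, where 28.5% of all genes tested were. Mesothelial markers summed to 494 and 833 CPM in K-Ras Mll4-/- against 100 and 209 CPM in K-Ras tumours. The mesothelial sum was carried by Krt19 (370 and 609 CPM against 78.4 and 187 CPM) and Msln (120 and 221 CPM against 13.8 and 17.0 CPM). Of the 4 mesothelial genes tested, Msln and Krt19 were above in both K-Ras Mll4-/- samples and Upk1b was below (29.9% and 28.5% of all genes tested). The groups overlapped in Lrrn4, and Upk3b and Wt1 were too scarce to be tested. Other markers were uneven between the libraries. Ciliated cell markers summed to 588 CPM in K-Ras replicate 2 against 53.4 to 97.4 CPM in the other 3 samples, and club cell markers to 4922 CPM there against 812 to 1226 CPM. All 6 ciliated genes, 3 of the 6 club cell genes and 5 of the 6 fibroblast genes were below in both K-Ras Mll4-/- samples. Of all genes tested, 28.5% were. Macrophage markers summed to 6612 CPM in K-Ras replicate 1 and 3837 CPM in K-Ras Mll4-/- replicate 1 against 594 and 919 CPM in the samples numbered 2. Basal cell markers summed to 126 CPM in K-Ras Mll4-/- replicate 2 and 30.1 CPM in replicate 1, against 2.88 and 9.05 CPM in K-Ras. That sum was carried by Trp63 and Krt14, at 88.6 and 34.7 CPM in K-Ras Mll4-/- replicate 2. Only 2 of the 5 basal genes were above in both K-Ras Mll4-/- samples, where 29.9% of all genes tested were. The part of these markers in the differences between the groups was not tested. In these bulk samples fewer cells of a type and less RNA per cell cannot be told apart.

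The comparison asks how the antioxidant genes differed between tumours with and without floxed Mll4. Gpx2, Slc7a11, Nfe2l2, Gclc and Nqo1 were higher in both K-Ras Mll4-/- samples than in both K-Ras samples, by 3.65, 2.34, 1.84, 1.5 and 1.35 times between the means. Keap1, Gclm, Txnrd1, Srxn1 and Hmox1 had overlapping groups, with ratios of means between 0.814 and 1.09. Of the 10 genes, 5 thus had all K-Ras Mll4-/- values above all K-Ras values, where 29.9% of all genes tested did, and 0 had them all below, where 28.5% did. With one sample left out in turn, a check chosen after seeing the data, 5 to 7 of the 10 did, against 37.4% to 42.4% of all genes. A positive log2 fold change was fitted for 7 of the 10, against 48.8% of all genes.

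**Figure D1:**
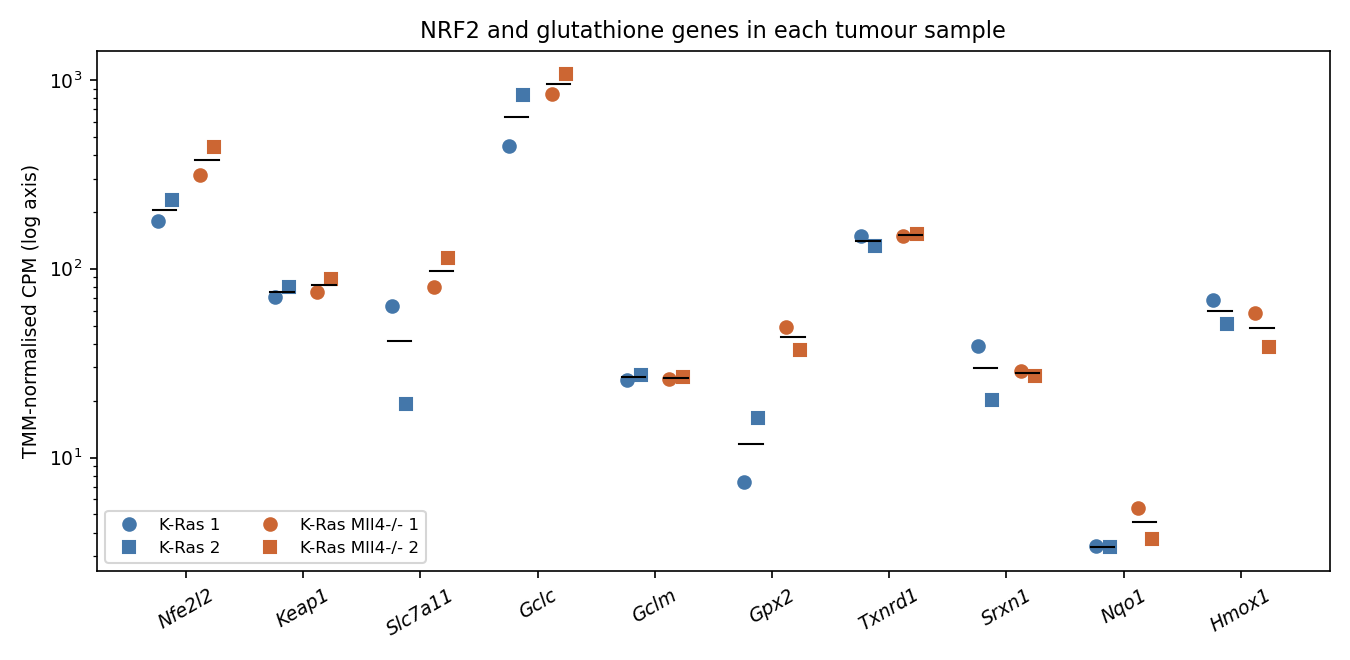
TMM-normalised CPM of the 10 genes on a log axis, with K-Ras samples in blue and K-Ras Mll4-/- samples in orange, circles for replicate 1, squares for replicate 2 and black lines for the group means. Gpx2, Slc7a11 and Nfe2l2 stand higher in both orange points, while Gclm lies between 25.7 and 27.4 CPM in all 4 samples.

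By the test across all genes none of the 10 was called at an adjusted p under 0.05 (edgeR quasi-likelihood test, Benjamini-Hochberg adjustment), where 0.0375% of all genes tested were. At an unadjusted p under 0.05 there were 2, Gpx2 and Nfe2l2, against 21.8% of all genes. Both were higher (11.4% of all genes) and 0 lower (10.4%). DESeq2, which called far more genes in these data (10% of all, 5.02% higher and 4.98% lower), called Gpx2 and Nfe2l2 higher. The edgeR likelihood ratio test also called these 2 (9.39% of all genes), and limma-voom called 0 of 16001. The median log2 fold change of the 10 genes was 0.28, beside -0.01 over all genes tested. The share that passed at an unadjusted p (20%) was near that of all genes. Which of the 10 genes DESeq2 called changed with the sample left out, and so did its number of calls over all genes. Such fits leave a single sample in a group and so take the spread from the other group alone.

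**Figure D2:**
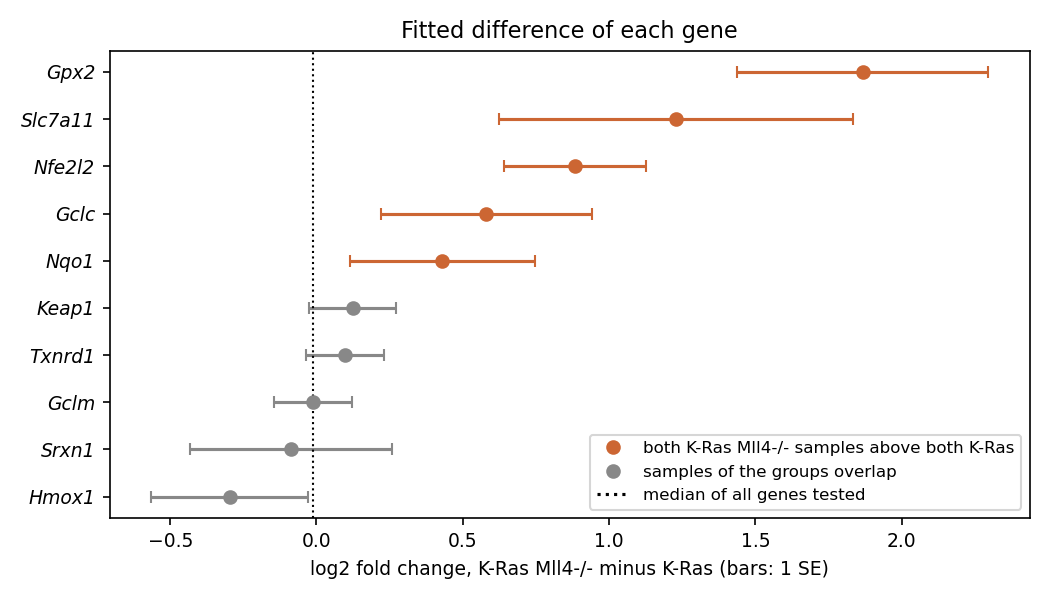
Fitted log2 fold change (K-Ras Mll4-/- minus K-Ras) of each gene with bars of 1 SE, orange where both K-Ras Mll4-/- samples were above both K-Ras samples and grey where the groups overlapped. Values run from -0.30 for Hmox1 to 1.87 for Gpx2, and the dotted line is the median of all genes tested, -0.01.

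The regulators came first. Nfe2l2 was at 179 and 231 CPM in K-Ras tumours and at 315 and 439 CPM in K-Ras Mll4-/- tumours. Each K-Ras Mll4-/- sample was thus above each K-Ras sample. The group means were 205 ± 36.7 and 377 ± 87.8 CPM (SD, n = 2 in both). The fitted log2 difference of 0.88 (SE 0.24) was not called, at an edgeR quasi-likelihood adjusted p of 0.178. DESeq2 gave an adjusted p of 0.0239. Leaving out single samples gave log2 fold changes between 0.61 and 1.10, all positive. Keap1, which encodes the NRF2 inhibitor, was at 70.5 and 80.2 CPM in K-Ras and at 75.5 and 88.7 CPM in K-Ras Mll4-/- tumours, so the groups overlapped. Its log2 fold change was 0.12 (SE 0.15, edgeR quasi-likelihood adjusted p = 0.656) and -0.01 without K-Ras Mll4-/- replicate 2. Per kilobase of transcript, Nfe2l2 stood at 3.7 and 4.2 times the level of Keap1 in the K-Ras samples and at 6.1 and 7.24 times in the K-Ras Mll4-/- samples.

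Of the 18 other genes of NRF2 control, all tested, 0 were called by edgeR or DESeq2 (0.0375% and 10% of all genes). An unadjusted edgeR p under 0.05 was found for 3 (16.7%, against 21.8% of all genes), 1 higher and 2 lower. The median log2 fold change of the 18 was 0.02. Cul3, the scaffold of the ubiquitin ligase that KEAP1 serves, was at 146 and 143 CPM in K-Ras and 162 and 186 CPM in K-Ras Mll4-/- tumours. Sqstm1, which encodes the autophagy receptor p62 that can sequester KEAP1, had a log2 fold change of -0.11, and Bach1, a repressor that competes at the same elements, one of -0.12. The small MAF partner Mafg had a log2 fold change of -0.14, and the NRF2 relatives Nfe2l1 and Nfe2l3 -0.02 and 0.02. The largest absolute differences of this role were in Nfe2 (log2 fold change -0.89), the hematopoietic relative of NRF2, Bach2 (-0.51) and Park7 (0.50). Nfe2 was scarce, at 3.43 to 8.40 CPM.

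Glutathione supply starts with cystine import. Slc7a11 encodes the transport subunit of the cystine-glutamate exchanger xCT and is also a target of the amino acid stress factor ATF4. It was at 63.6 and 19.2 CPM in K-Ras tumours and at 79.8 and 114 CPM in K-Ras Mll4-/- tumours. Both K-Ras Mll4-/- samples were higher, but the K-Ras samples differed from each other by more than K-Ras replicate 1 differed from K-Ras Mll4-/- replicate 1. The log2 fold change was 1.23 (SE 0.60, edgeR quasi-likelihood adjusted p = 0.307). Without K-Ras replicate 1 it was 2.34, and without K-Ras replicate 2 it was 0.59. The low sample, K-Ras replicate 2, was the one with the highest ciliated and club cell markers, and their part in the result was not tested. Slc3a2, the heavy chain that carries xCT to the membrane, went the other way in its means, with 288 and 320 CPM in K-Ras and 265 and 221 CPM in K-Ras Mll4-/- tumours (log2 fold change -0.32, edgeR quasi-likelihood adjusted p = 0.327). Per kilobase, Slc7a11 was at 0.0674 and 0.0183 of the level of Slc3a2 in K-Ras and at 0.0916 and 0.158 in K-Ras Mll4-/- tumours.

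Gclc and Gclm encode the catalytic and modifier subunits of glutamate-cysteine ligase, the rate-limiting enzyme of glutathione synthesis. Gclc was the most abundant of the 10 genes, at 445 and 832 CPM in K-Ras and at 840 and 1070 CPM in K-Ras Mll4-/- tumours. K-Ras replicate 2 and K-Ras Mll4-/- replicate 1 were almost level, so the groups were barely separate. The log2 fold change was 0.58 (SE 0.36, edgeR quasi-likelihood adjusted p = 0.397), and it ranged from 0.20 without K-Ras replicate 1 to 1.09 without K-Ras replicate 2. Gclm was at 25.7 and 27.4 CPM in K-Ras and at 26.1 and 26.6 CPM in K-Ras Mll4-/- tumours, and the K-Ras values enclosed the others. Its log2 fold change was -0.01 (SE 0.13) and stayed between -0.06 and 0.02 when single samples were left out. Per kilobase of transcript the catalytic subunit was at 28.2 and 49.6 times the level of the modifier in K-Ras and at 52.5 and 65.7 times in K-Ras Mll4-/- tumours. The current annotation places an antisense transcript and, on the same strand, a processed pseudogene over parts of Gclm exons, and Keap1 also has an antisense partner. None of these is among the counted genes. The strand setting of the counts is not given in the sources used here, so the antisense overlaps leave these levels uncertain. No strand setting would separate the pseudogene from Gclm.

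Among the 22 other genes of cystine import and glutathione synthesis and recycling, edgeR called 0. DESeq2 called 6 of the 22 (27.3%, against 10% of all genes), all but Glrx named for that call. The 4 higher were Gss, Ggct, Glrx and Chac2, and the 2 lower were Oplah and Slc6a9. Unadjusted edgeR p values under 0.05 were found for 8 (36.4%, against 21.8% of all genes), of which 4 were higher and 4 lower, and the median log2 fold change was -0.36. The largest absolute differences were in Ggt1, an enzyme that splits extracellular glutathione (1.55, SE 1.03), the glutaredoxin gene Glrx (1.36, SE 0.28) and Ggt6 (-1.35, SE 0.98). Ggt1 rested on one sample, with 10.2 CPM in K-Ras Mll4-/- replicate 1 and 1.21 to 2.71 CPM in the other 3. Glrx was at 25.4 and 27.9 CPM in K-Ras and at 51.3 and 85.5 CPM in K-Ras Mll4-/- tumours (edgeR quasi-likelihood adjusted p = 0.155), and DESeq2 called it.

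Gpx2 encodes a selenium-dependent glutathione peroxidase known from the epithelium of the gut and airways. With all 4 samples it had the largest fitted difference of the 10 genes, but without K-Ras replicate 1 that of Slc7a11 was larger (2.34 against 1.41). Gpx2 was at 7.39 and 16.3 CPM in K-Ras tumours and at 49.2 and 37.3 CPM in K-Ras Mll4-/- tumours, on 226 to 1292 reads per sample. The lowest K-Ras Mll4-/- sample was above the highest K-Ras sample. The group means were 11.8 ± 6.28 and 43.2 ± 8.44 CPM (SD, n = 2 in both). The fitted log2 difference was 1.87 (SE 0.43, edgeR quasi-likelihood adjusted p = 0.163). DESeq2 gave an adjusted p of 6.6e-04. The log2 fold change was 1.41 without K-Ras replicate 1 and 2.53 without K-Ras replicate 2. The pseudogene Gpx2-ps1 is counted as a gene of its own and held only 14 to 36 reads per sample, fewer in K-Ras Mll4-/- tumours (0.724 and 0.434 CPM) than in K-Ras tumours (0.981 and 0.996 CPM).

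The rest of the peroxidase family was not alike. Per kilobase of transcript, Gpx1, Gpx4 and Gpx3 were the most abundant members, with means over the 4 samples of 161, 134 and 98.2 CPM per kilobase. Gpx2 followed at 25.8, Gpx8 at 11.8 and Gpx7 at 3.86 CPM per kilobase, and Gpx5 and Gpx6 had at most 0.0413 CPM per kilobase in any sample. The ranges of Gpx1, Gpx4 and Gpx3 overlapped, as did those of Gpx2 and Gpx8. Gpx1, the cytosolic enzyme, was at 160 and 118 CPM in K-Ras and at 211 and 201 CPM in K-Ras Mll4-/- tumours (log2 fold change 0.57, edgeR quasi-likelihood adjusted p = 0.206). Gpx4, which removes lipid peroxides, had a log2 fold change of 0.33. Gpx3, the secreted enzyme, was at 305 and 132 CPM in K-Ras and at 89.0 and 100 CPM in K-Ras Mll4-/- tumours (log2 fold change -1.20, edgeR quasi-likelihood adjusted p = 0.217, called by DESeq2). Gpx8 had a log2 fold change of -0.91. Fibroblast markers were also highest in K-Ras replicate 1, at 2464 CPM summed, against 1121 CPM in K-Ras replicate 2 and 837 and 850 CPM in K-Ras Mll4-/- tumours, and their part in the level of Gpx3 was not tested. The level of Gpx2 relative to Gpx1, per kilobase, was 0.0464 and 0.139 in K-Ras and 0.234 and 0.186 in K-Ras Mll4-/- tumours.

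**Figure D3:**
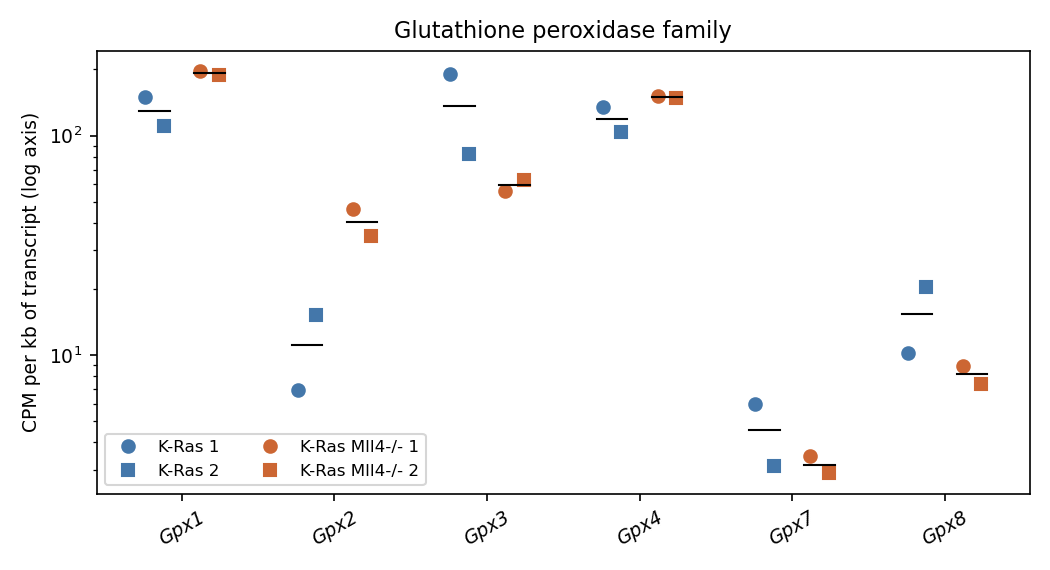
CPM per kilobase of transcript for 6 glutathione peroxidase genes on a log axis, with the same colours and symbols as in the plot of the 10 genes and black lines for group means. Gpx2 lies higher in both orange points and Gpx3 lower, and Gpx1, Gpx3 and Gpx4 are the most abundant.

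The genes whose values ran most like those of Gpx2 were found by the root mean square difference of centred log2 CPM over the 4 samples. The nearest 5 were Nkx6-3, Gldc, Krt18, Tekt5 and Serp2, at 0.15, 0.15, 0.18, 0.19 and 0.19 log2 units. Krt18, a simple epithelial keratin, was the only abundant one, at 177 and 277 CPM in K-Ras and at 1065 and 834 CPM in K-Ras Mll4-/- tumours. Nkx6-3 had only 1 to 16 reads per sample. With 4 samples, such likeness is a description only.

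Both members of the thioredoxin branch had overlapping groups. Txnrd1, the cytosolic thioredoxin reductase, was at 149 and 132 CPM in K-Ras and at 149 and 152 CPM in K-Ras Mll4-/- tumours. The values of the groups overlapped, and the log2 fold change was 0.10 (SE 0.13), between -0.0025 and 0.19 with single samples left out. Its relatives Txnrd2 and Txnrd3 had log2 fold changes of -0.10 and 0.03. Srxn1, the sulfiredoxin that repairs overoxidised peroxiredoxins, was at 39.2 and 20.1 CPM in K-Ras and at 28.6 and 27.2 CPM in K-Ras Mll4-/- tumours, with the K-Ras values on either side of the others. Its log2 fold change was -0.09 (SE 0.35), and it turned to 0.48 without K-Ras replicate 1. Of the 18 other thioredoxin and peroxiredoxin genes edgeR called 0, and 6 (33.3%, against 21.8% of all genes) had an unadjusted p under 0.05, all higher in K-Ras Mll4-/- tumours. DESeq2 called 4 (22.2%, against 10% of all genes), Prdx1, named for that call, Prdx2, Prdx4 and Txn2, all higher. Prdx4, the peroxiredoxin of the endoplasmic reticulum, had the largest difference, with 20.3 and 20.8 CPM in K-Ras and 36.7 and 47.3 CPM in K-Ras Mll4-/- tumours (log2 fold change 1.03). Prdx2 (0.75) and the mitochondrial thioredoxin gene Txn2 (0.71) followed.

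Nqo1, the quinone reductase most often used as an NRF2 reporter, was scarce. It had 104 and 121 reads in the K-Ras samples and 142 and 119 reads in the K-Ras Mll4-/- samples. These were 3.40 and 3.35 CPM against 5.41 and 3.69 CPM. The exact 95% Poisson interval of K-Ras Mll4-/- replicate 2, 3.06 to 4.42 CPM, overlapped that of K-Ras replicate 1, 2.78 to 4.12 CPM, so their separation was not detectable at this depth. The intervals cover counting error only. The log2 fold change was 0.43 (SE 0.32, edgeR quasi-likelihood adjusted p = 0.466). It was 0.13 without K-Ras Mll4-/- replicate 1 and 0.67 without K-Ras Mll4-/- replicate 2. Per kilobase of transcript it was the least abundant of the 10 genes, at a mean of 2.55 CPM per kilobase, against 233 for Gclc and 118 for Nfe2l2 at the top. Between them came Txnrd1 at 40.2, Hmox1 at 34.3, Gpx2 at 25.8, Keap1 at 21.8, Srxn1 at 10.2, Slc7a11 at 7.50 and Gclm at 4.74 CPM per kilobase. Over the 4 samples the range of Nfe2l2 was clear of that of Txnrd1, that of Keap1 of Srxn1 and that of Gclm of Nqo1, while the other neighbours in this order overlapped. The related Nqo2 had a log2 fold change of -0.0018.

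Hmox1 encodes heme oxygenase, which is also strongly expressed by macrophages. It was at 68.1 and 50.7 CPM in K-Ras and at 58.0 and 38.6 CPM in K-Ras Mll4-/- tumours, so the groups overlapped (log2 fold change -0.30, SE 0.27, edgeR quasi-likelihood adjusted p = 0.547). The log2 fold change was -0.62 without K-Ras Mll4-/- replicate 1 and -0.51 without K-Ras replicate 2, but -0.05 without K-Ras Mll4-/- replicate 2 and -0.07 without K-Ras replicate 1. Both samples numbered 1 were above both numbered 2, an order found in 13.3% of all genes tested. The same was true of Srxn1 and of the ferritin chains that store iron from heme breakdown. Nqo1 had the sample numbered 1 above that numbered 2 within each group, but not across the groups. Fth1 was at 1406 and 503 CPM in K-Ras and at 825 and 567 CPM in K-Ras Mll4-/- tumours. Ftl1 was at 1527 and 558 CPM against 1143 and 812 CPM. Both ferritin genes have processed copies, so their counts are uncertain. All 8 macrophage markers tested were higher in both samples numbered 1 than in both numbered 2, an order found in 13.3% of all genes tested. Among them, the alveolar macrophage receptor gene Marco, chosen after its values were seen, was at 211 and 14.6 CPM in the samples numbered 1 and at 9.19 and 3.38 CPM in those numbered 2. Of 6 pan-leukocyte markers, 5 showed that order, and Ptprc, which encodes CD45 itself, stood at 274 and 269 CPM against 143 and 171 CPM. No marker of either list was at 0 reads in every sample. Their part in the levels of Hmox1, Srxn1 and the ferritins was not tested.

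**Figure D4:**
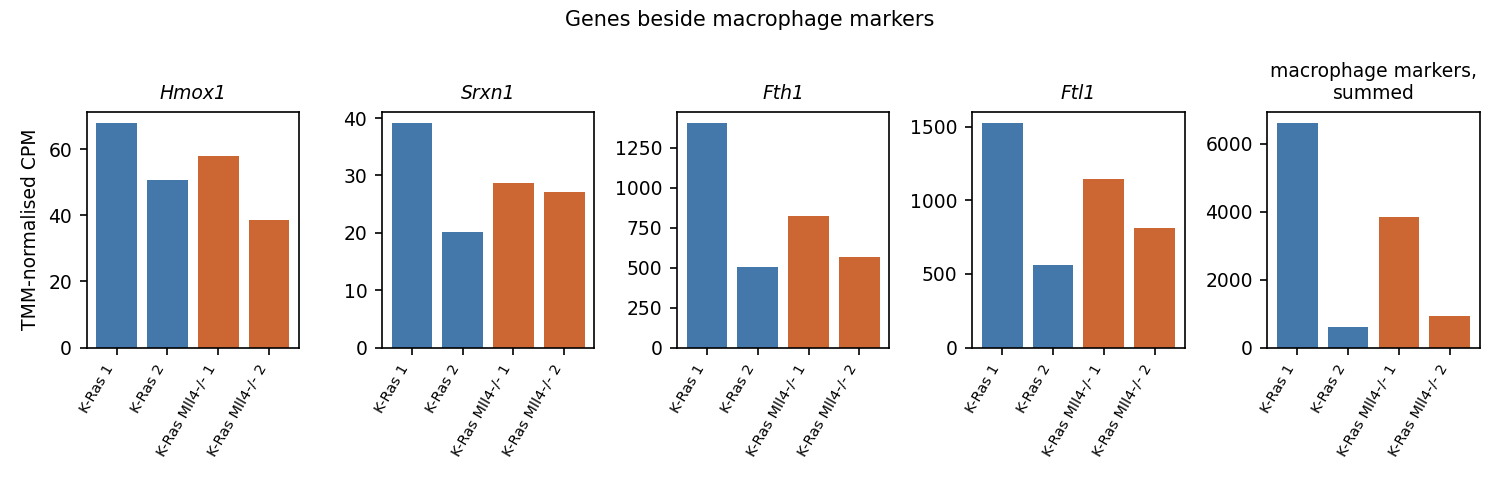
TMM-normalised CPM of Hmox1, Srxn1, Fth1, Ftl1 and the summed macrophage markers in each sample, K-Ras in blue and K-Ras Mll4-/- in orange, with each axis starting at 0. In every panel the sample numbered 1 is above the sample numbered 2 of its own group, most widely in the marker sum, at 6612 against 594 CPM in K-Ras.

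Of the 11 heme and iron genes tested, edgeR and DESeq2 called 0 (0.0375% and 10% of all genes). An unadjusted edgeR p under 0.05 was found for 4 (36.4%, against 21.8% of all genes), 2 in each direction. Hmox2, the constitutive heme oxygenase, had a log2 fold change of 0.39. The iron exporter gene Slc40a1 had one of -1.05 and the transferrin receptor gene Tfrc one of 0.46.

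The wider list of 152 genes of the NRF2 and glutathione system held 145 that were tested, and edgeR called 0 of them. At an unadjusted edgeR p under 0.05 there were 41 higher and 15 lower, together 38.6% of the list against 21.8% of all genes tested. DESeq2 called 23 higher and 6 lower, 20% against 10% of all genes, and limma-voom called 0. In 40.7% of the list both K-Ras Mll4-/- samples were above both K-Ras samples, and in 22.8% both were below, against 29.9% and 28.5% of all genes. The median log2 fold change of the list was 0.11. These shares are descriptions, and the list was written with earlier results of these data known.

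Glutathione transferases and NADPH supply held many of the higher genes. Of the 22 glutathione transferase genes tested, 11 had an unadjusted edgeR p under 0.05 with higher values and 4 with lower (11.4% and 10.4% of all genes), and the median log2 fold change was 0.57. DESeq2 called 7 of the 22 (31.8%, against 10% of all genes), all but Gstp2 named for that call. The 5 higher were Gsta4, Gstp2, Gsto1, Gstk1 and Mgst3, and the 2 lower were Gsta3 and Gstt1. The largest absolute differences were in Gstp2 (2.73, SE 0.64), Gstm6 (2.02, SE 0.67) and Gstm7 (1.81, SE 0.68). All of these have near-identical family members and few reads, so their counts are uncertain. Gstm6 was at 3.54 and 1.15 CPM in K-Ras Mll4-/- replicates 1 and 2, against 0.589 and 0.553 CPM in K-Ras. Gstm7 was at 8.45 and 2.42 CPM against 1.70 and 1.38 CPM, so both were highest in K-Ras Mll4-/- replicate 1. Gsto1, an omega-class transferase chosen after its values were seen, was at 59.2 and 100 CPM in K-Ras and at 253 and 305 CPM in K-Ras Mll4-/- tumours (log2 fold change 1.81, edgeR quasi-likelihood adjusted p = 0.147). Gstk1 and Gsta4, also chosen so, had log2 fold changes of 1.46 and 1.58. Of the 11 genes listed under NADPH supply, 8 had both K-Ras Mll4-/- samples above both K-Ras samples and 0 had both below (29.9% and 28.5% of all genes). Their median was 0.32, edgeR called 0, and DESeq2 called 2 (18.2%, against 10% of all genes), Mthfd2 and G6pdx. Mthfd2, a mitochondrial folate enzyme, was at 8.70 and 8.97 CPM in K-Ras and at 35.6 and 42.8 CPM in K-Ras Mll4-/- tumours (log2 fold change 2.15, edgeR quasi-likelihood adjusted p = 0.0839). Malic enzyme Me1 (0.97) and G6pdx (0.68), the first enzyme of the pentose phosphate pathway, followed.

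The other roles held genes in both directions. The 27 quinone, aldehyde and xenobiotic enzymes tested had 7 genes higher and 2 lower at an unadjusted edgeR p under 0.05 (11.4% and 10.4% of all genes), and a median of 0.28. DESeq2 called 7 of the 27 (25.9%, against 10% of all genes), 6 higher and 1 lower. In 40.7% of the 27 both K-Ras Mll4-/- samples were above both K-Ras samples, and in 14.8% both were below (29.9% and 28.5% of all genes). Cyp2a5, at 36.5 CPM in K-Ras replicate 2 and 3.14 to 5.33 CPM in the other samples, had the lowest log2 fold change (-2.08), and that sample also held the highest club and ciliated markers. Ugdh, which makes UDP-glucuronate for conjugation, was at 23.1 and 20.9 CPM in K-Ras and at 43.0 and 79.5 CPM in K-Ras Mll4-/- tumours (1.48), and the conjugating enzyme gene Ugt1a6b was lower (-1.66) on few reads. The 6 efflux transporters tested split into 4 with both K-Ras Mll4-/- samples above and 2 with both below (29.9% and 28.5% of all genes). Abcc4 (1.20) and Abcc3 (0.98), exporters of conjugates, had the largest positive differences, and Abcg2 (-0.88) the largest negative one. Of the 5 superoxide and hydrogen peroxide genes, Sod1, the cytosolic superoxide dismutase, was higher (0.56) and DESeq2 called it, while the copper chaperone gene Ccs (-0.41) and the extracellular Sod3 (-0.60) had negative values.

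**Figure D5:**
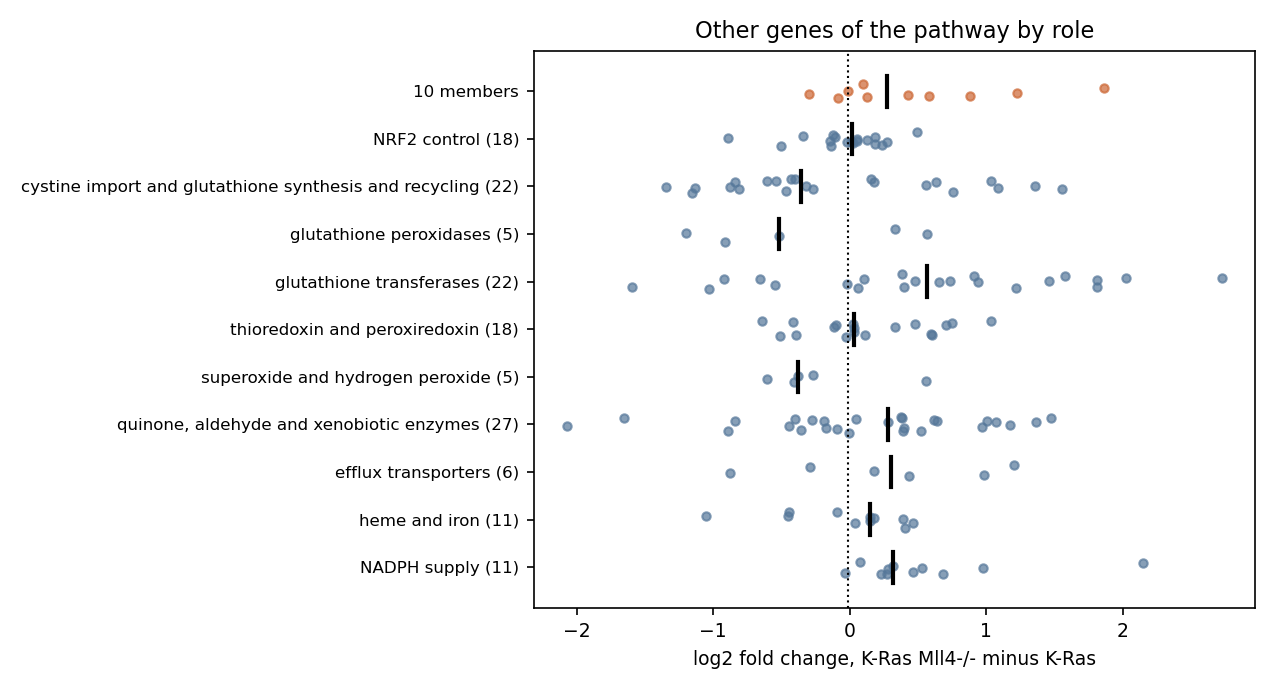
Fitted log2 fold change (K-Ras Mll4-/- minus K-Ras) of each tested gene by role, with the number of genes in brackets, black bars for medians and a dotted line for the median of all genes tested. Glutathione transferases have the highest median, 0.57, and glutathione peroxidases other than Gpx2 the lowest, -0.52.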

How the data were processed

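Raw read counts per gene symbol, 1 file per sample, were deposited by the authors in the HTSeq layout. The submitters' processing notes name CASAVA 1.4, STAR, HTSeq and the mm9 build, and the annotation and strand setting are not given in the sources used here. Reads with several alignments were tallied apart and are in no gene, so near-identical genes are undercounted. RefSeq windows and GENCODE M21 transcript lengths are of GRCm38, so no position was read from the files' build. Per-kilobase levels divide CPM by the longest protein-coding M21 transcript.

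The 4 samples were grouped by title and compared with edgeR 4.0.16 in R 4.3.3: default count filter, TMM scaling, robust quasi-likelihood test, Benjamini-Hochberg adjustment over 16001 genes, calls at an adjusted p under 0.05. The SE is the log2 fold change divided by the square root of F. DESeq2 1.42.0, limma-voom (limma 3.58.1), other scalings and filters, GC and length offsets, a replicate block and single samples left out were the alternatives. The fits were also run on simulated counts with a spread common to all genes, a check of the code and not of these data. The members and lists were chosen with earlier results of these data known. Named in the text were all members, fixed paralogs and partners, in each role the 3 pathway genes whose fitted difference was largest in size, and the 5 genes most like Gpx2, the member with the largest fitted difference. Genes named outside this rule, among them cell markers, DESeq2 calls, Ftl1 and Gpx2-ps1, were chosen after their values were seen.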

Additional observations from a re-analysis of the deposited data

How the results depend on the processing

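Of 150 values of single members under the alternatives, 138 kept their direction and their side of the threshold, 5 became called and 7 changed sign. The sign changes were all in genes with small differences: Srxn1 (0.0067 with limma-voom, 0.079 with the replicate block and GC and length offsets, and -0.506 to 0.475 with single samples left out, positive without K-Ras replicate 1), and, with single samples left out, Gclm (-0.057 to 0.0189), Keap1 (-0.00997 to 0.235) and Txnrd1 (-0.0025 to 0.188). The members called by DESeq2 numbered 2, as did those of the likelihood ratio test, Nfe2l2 and Gpx2. With single samples left out, the edgeR quasi-likelihood call changed for Slc7a11 alone of the members. Which members DESeq2 called then changed too, as did the number called over all genes. The median of the members stayed between 0.18 and 0.32, and 6 to 8 of them had a positive value.

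Against 6 genes called in all, 5 to 8 were called with other scalings, offsets for GC and length or a filter of CPM 1, 44 with the loosest filter (42 higher, 2 lower), 1601 with DESeq2 (804 higher, 797 lower), 1503 with the likelihood ratio test (776 higher, 727 lower), 0 with limma-voom, and 0 to 524 with single samples left out. The 524 came without K-Ras replicate 1 (107 higher, 417 lower), and leaving out any other sample gave 0. Of the pathway list, against 0 called, the loosest filter called 1 (Mthfd2), DESeq2 29, the likelihood ratio test 22, and leaving out single samples 0 to 4 (Gsta3, Gstk1, Cyp2a5 and Mthfd2 without K-Ras replicate 1). The cause was not tested.

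The replicate numbers are shared by the groups, and deviations of same-numbered samples from their group means correlated at 0.21 across genes, but with 2 per group and no label saying what a number stands for, they share only a number. With the replicate block 217 genes were called (199 higher, 18 lower), 0 members and 5 pathway genes, Gsta4, Gsto1, Gstk1, Mgst3 and Mthfd2. With the replicate block and offsets for GC and length together 424 were called (356 higher, 68 lower), 0 members and 11 pathway genes. Depth limits Nqo1 most, with 104 to 142 reads per sample.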
